A study of Mus musculus with 4 samples.

Results

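The insulin-like growth factor (IGF) system was examined through 10 genes taken by their symbols from the deposited expression table of 24771 features. They comprise the ligand gene Igf1, the receptor genes Igf1r and Insr, and the genes of the binding proteins Igfbp1 to Igfbp7, and all 10 were listed. The genes were compared between PSC-derived SG placodes and embryonic mouse submandibular glands (SMGs), with 2 samples in each group. Total RNA was the starting material of all samples, and no transgene or deletion is named for either group.

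The placodes were aggregates of a single mouse embryonic stem cell line, collected on day 10 of differentiation. They had been seeded at 3000 cells per well with 2% Matrigel, then given BMP4 (2 ng/ml, day 3), bFGF (25 ng/ml) with RA (1 μM, day 4), and FGF10 (200 ng/ml, from day 6). Their medium held knockout serum replacement, a supplement that contains insulin. The SMGs came from E12.5 embryos. Strain, pooling of embryos and the way the glands were dissected are not given in the sources used here, and the labels do not say whether samples of one group came from separate cultures or litters, so p-values measure only the spread between these samples, which may be technical.

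IGF1 and IGF2 are secreted growth factors that promote growth and survival through the receptor tyrosine kinase IGF1R, while insulin acts mainly through the related INSR. The binding proteins IGFBP1 to IGFBP6 hold IGFs in the extracellular space, where they can prolong their life, keep them from the receptor or release them after cleavage by proteases, and IGFBP7 binds IGFs only weakly. In embryonic organs much of the IGF supply comes from the mesenchyme, and developing neural tissue is known for IGFBP2 and IGFBP5.

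Expression was given by the authors as FPKM, a fragment count per gene divided by transcript length and by the fragments mapped in that library, so that levels of different genes can be set side by side within a sample. Summed FPKM was between 361963 and 384773 per sample, and the read depth is unknown. Mitochondrial genes held between 5.88% and 5.93% of it in the placodes and between 8.07% and 10.7% in the SMGs. No date or batch is given for the samples, so a batch and the tissue cannot be told apart. Groups were compared with limma on log2(FPKM + 1) over the 13193 features with a mean FPKM of at least 1, and a gene was called at a Benjamini-Hochberg adjusted p below 0.05. The log2 change is the placode mean minus the SMG mean on this scale, given with its standard error (SE). The tissues differed widely, as 76.2% of all tested features were called, 35.7% higher and 40.4% lower in the placodes. A call with a difference of at least 2-fold was made for 29.4% of features, 14.1% higher and 15.2% lower. Non-overlapping groups were found for 88.4% of features. With 2 samples per group, the smallest two-sided p that exact permutation allows for a single gene is 0.333.

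The make-up of the tissues was read from lists of marker genes. Both placode samples were high in neural markers, whose 8 genes summed to an FPKM of 969.7 and 1013 against 113 and 104 in the SMG samples, and each of the 8 exceeded the SMGs by 2-fold or more. The 10 mesenchyme markers summed to 229.6 and 221 in the placodes versus 2251 and 2204 in the SMGs, and each of the 10 was lower by 2-fold or more. The 6 endothelial markers summed to between 9.32 and 9.75 in the placodes and between 118 and 124 in the SMGs. Of 10 salivary epithelial markers, all 10 reached an FPKM of 1 in both SMG samples and 5 did so in both placode samples, and Krt5, Krt14 and Krt15 were listed at 0 in both placode samples. The SMG samples also held erythroid markers (4 genes summing to 1116 and 1121) and skeletal muscle markers (5 genes summing to 139.0 and 95.5), and these sums were below 1 in both placode samples. Macrophage markers (5 genes) summed to at most 2.01 in the placodes and at least 13.6 in the SMGs. The name SG placodes is the study's, while the sample titles call these samples induced embryonic salivary glands. The salivary epithelial markers summed to 60.6 and 66.0 in them against 644 and 614 in the glands. The 8 lower markers, with 3 keratins at 0, go against both names, while Krt8 and Krt18 were at similar levels. SG placodes is therefore used here only as a name.

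**Figure D1:**
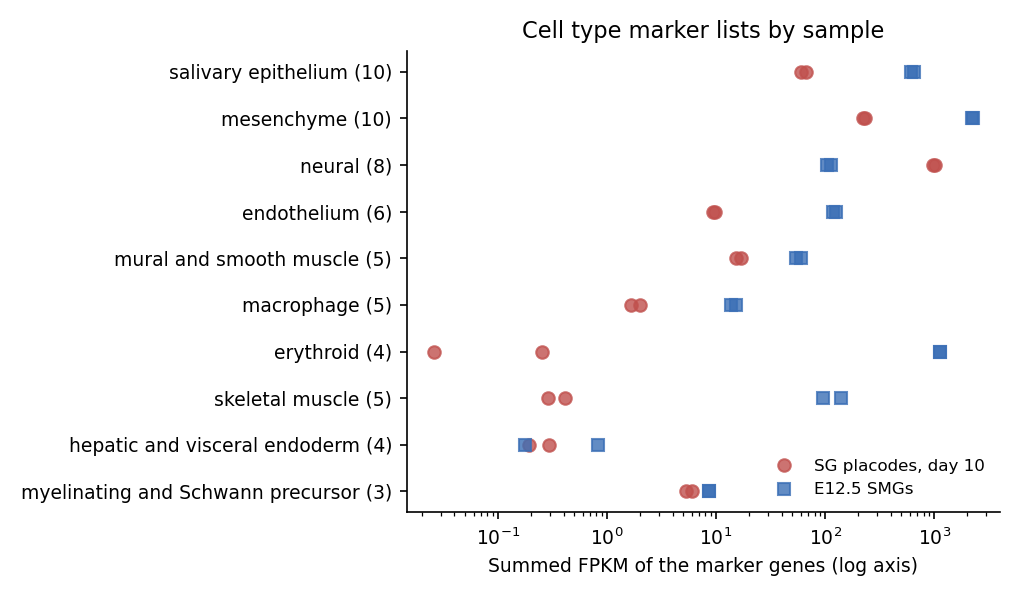
Summed FPKM of the genes of each marker list on a log axis, with the number of genes of the list in brackets, for the 2 placode samples (circles) and the 2 SMG samples (squares). The neural sum is higher in both placode samples, and the mesenchymal sum lies between 221 and 229.6 in the placodes against 2204 and 2251 in the SMGs.

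Of the 10 genes, 9 passed the minimum mean FPKM and were tested, and 8 of these were called, beside 76.2% of all tested features, 3 higher in the placodes (Igfbp2, Igfbp5 and Igf1r) and 5 lower (Igf1, Igfbp3, Igfbp4, Igfbp6 and Igfbp7). Differences of at least 2-fold were called for 5 genes, beside 29.4% of all tested features, with Igfbp2 higher and Igf1, Igfbp3, Igfbp4 and Igfbp7 lower. The median size of the log2 change was 1.70 for the 9 genes and 0.55 for all tested features. In each of the 9 tested genes the placode values and the SMG values lay apart, as they did for 88.4% of all tested features.

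**Figure D2:**
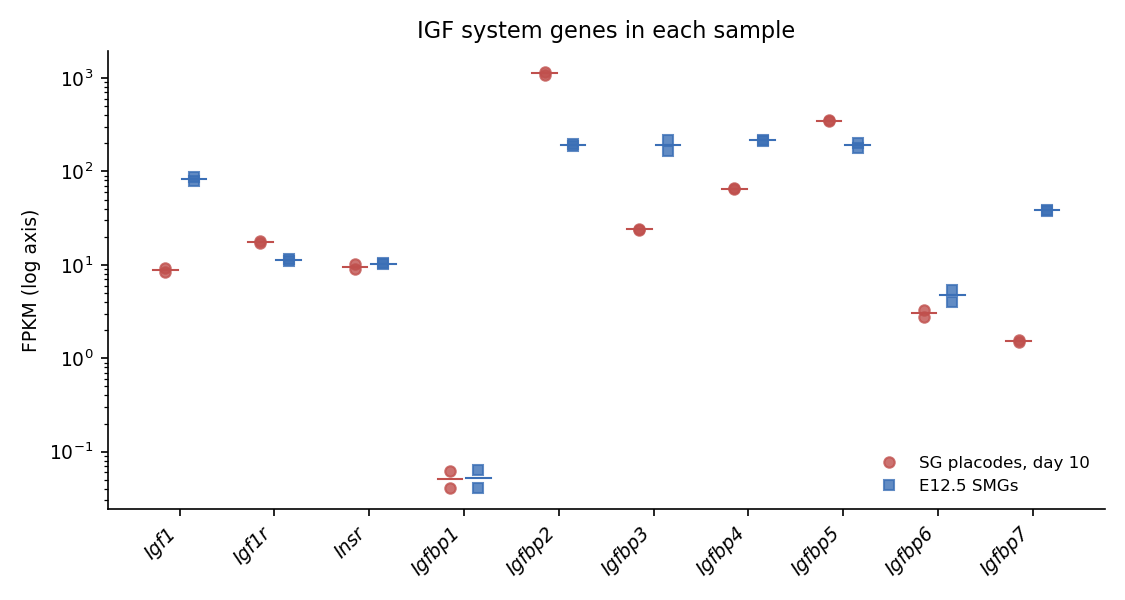
FPKM of the 10 genes on a log axis in the 2 placode samples (circles) and the 2 SMG samples (squares), with a short line at each group mean. Igfbp2 is at 1082 and 1172 in the placodes, Igfbp7 is near 1.5 in the placodes and 38.2 in the SMGs, and the points of Insr and Igfbp1 lie close together.

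The ligand gene Igf1 was much lower in the placodes. Igf1 (ENSMUSG00000020053) lies on the plus strand of chromosome 10 of GRCm38 between bases 87858265 and 87937042. Its FPKM was 9.15 and 8.39 in placode samples 1 and 2, versus 78.0 and 87.9 in SMG samples 1 and 2. Both SMG samples were thus far above both placode samples, and the mean was 9.46 times as high in the SMGs. The log2 change was -3.10 (SE 0.08, adjusted p = 5.53e-07). In order of FPKM among the 22036 Ensembl genes, Igf1 stood at position 610 in glands and 7231 in placodes. In these bulk samples, fewer cells of a type and less RNA per cell cannot be told apart. The summed mesenchyme markers were 9.88 times as high in the SMGs, and their part in the difference of Igf1, or of Igf2 described next, was not tested.

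Igf2, which encodes the main IGF of the embryo and is expressed from the paternal allele, was the more abundant ligand transcript in every sample. Its FPKM was 281.7 and 273.1 in the placodes versus 1157 and 1454 in the SMGs, a log2 change of -2.22 (SE 0.11, adjusted p = 8.45e-06). Igf1 made up 3.15% and 2.98% of the summed FPKM of both ligand genes in the placodes versus 6.31% and 5.70% in the SMGs. The share of Igf1 was lower in both placode samples, so Igf1 differed between the tissues by more than Igf2 did. The insulin genes Ins1 and Ins2, named after their values were seen, were listed at 0 in all 4 samples.

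The receptor genes Igf1r and Insr differed far less than the ligand genes Igf1 and Igf2. The other receptor genes, Igf2r and Insrr, differed by 2-fold or more and are described below. Igf1r (ENSMUSG00000005533), on the plus strand of chromosome 7 between bases 67952827 and 68233668, measured 17.3 and 17.9 FPKM in the placodes versus 11.6 and 11.0 in the SMGs. Its log2 change was 0.59 (SE 0.06, adjusted p = 2.61e-04), so both placode samples were higher by more than the spread between replicates. Insr (ENSMUSG00000005534), on the minus strand of chromosome 8 between bases 3122061 and 3279617, measured 8.99 and 10.1 FPKM in the placodes versus 10.2 and 10.5 in the SMGs. Its placode values lay just under its SMG values, and the difference was not called (log2 change -0.11, 95% interval -0.31 to 0.09, adjusted p = 0.272). The FPKM ratio of Igf1r to Insr was 1.92 and 1.78 in the placodes versus 1.14 and 1.05 in the SMGs. Igf1r also exceeded its ligand gene Igf1 in both placode samples, with ratios of 1.89 and 2.14, against 0.149 and 0.126 in the SMG samples.

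**Figure D3:**
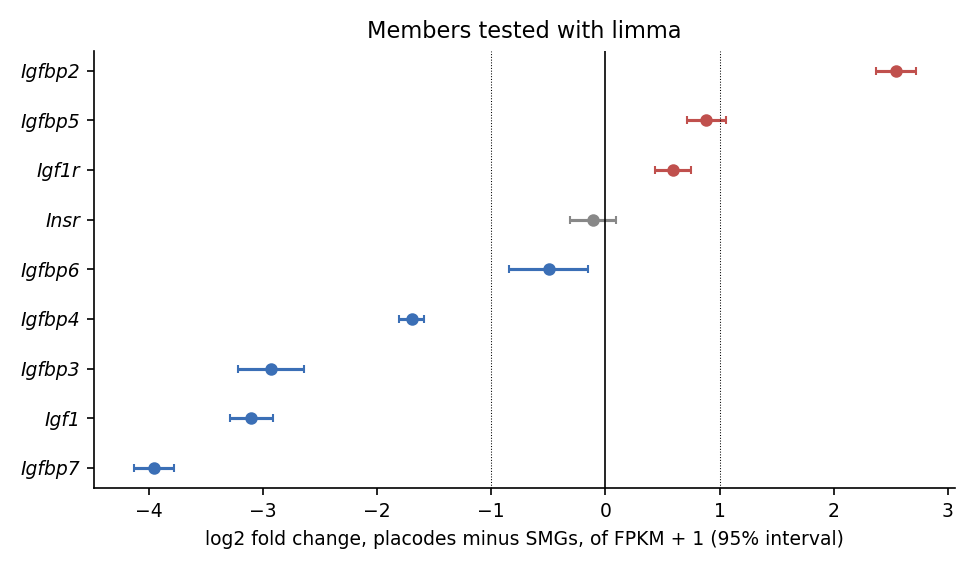
log2 change of FPKM + 1 between placodes and SMGs for the 9 tested genes, with 95% intervals from limma. Genes called higher in the placodes are red, those called lower are blue, the gene that was not called is grey, and dotted lines mark 2-fold. Igfbp2 (2.54) and Igfbp7 (-3.96) lie at the ends, and the interval of Insr includes 0.

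Among the binding proteins, Igfbp2 rose most in the placodes. Igfbp2 (ENSMUSG00000039323), on the plus strand of chromosome 1 between bases 72824503 and 72852474, measured 1172 and 1082 FPKM in the placodes versus 199.0 and 185.6 in the SMGs. Both placode samples were several times above both SMG samples, and Igfbp2 stood at position 15 of all Ensembl genes in placodes and 219 in glands. The log2 change was 2.54 (SE 0.07, adjusted p = 8.00e-07), or 5.86 times as a ratio of mean FPKM. Igfbp5 (ENSMUSG00000026185), whose protein also binds the extracellular matrix, lies on the minus strand of chromosome 1 between bases 72857932 and 72874884. Its FPKM was 352.1 and 348.5 in the placodes versus 201.0 and 178.0 in the SMGs. This is a log2 change of 0.89 (SE 0.07, adjusted p = 5.72e-05), with both placode samples higher. The neural marker sum was 9.13 times as high in the placodes, and its part in the rise of Igfbp2 and Igfbp5 was not tested.

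Igfbp3, Igfbp4 and Igfbp7 moved the other way. Igfbp3 (ENSMUSG00000020427), which encodes the main IGF carrier of adult blood, lies on the minus strand of chromosome 11 between bases 7206086 and 7213923. Its FPKM was 23.8 and 24.1 in the placodes versus 215.8 and 165.1 in the SMGs. The SMG samples differed from each other more than the placode samples did, yet both were far above the placodes (log2 change -2.93, SE 0.12, adjusted p = 3.45e-06). Igfbp4 (ENSMUSG00000017493), which encodes a binding protein known for holding IGFs back from their receptor, lies on the plus strand of chromosome 11 between bases 99041244 and 99054392. Its FPKM was 66.2 and 65.1 in the placodes versus 212.0 and 218.1 in the SMGs, a log2 change of -1.70 (SE 0.05, adjusted p = 7.64e-07). The replicates of both groups lay close together, and Igfbp4 kept a level in the placodes that was the third highest of the 10 genes.

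Igfbp7 (ENSMUSG00000036256), which encodes a matrix protein of blood vessels and stroma, had the largest relative difference of the 10 genes. It lies on the minus strand of chromosome 5 between bases 77349240 and 77408041. Its FPKM was 1.49 and 1.56 in the placodes versus 38.3 and 38.1 in the SMGs, and the mean was 25.0 times as high in the SMGs. The log2 change was -3.96 (SE 0.07, adjusted p = 2.22e-07). An exon of Igfbp7 overlaps an exon of Polr2b on the opposite strand, and since the strandedness of the libraries is not given, reads in the overlap cannot be told apart. Polr2b itself had an FPKM of 37.3 and 34.4 in the placodes versus 32.5 and 31.0 in the SMGs. The other 9 genes share no exon with another annotated gene. The endothelial marker sum was 12.7 times and the mesenchymal sum 9.88 times as high in the SMGs, and their part in the differences of Igfbp3, Igfbp4 and Igfbp7 was not tested.

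Igfbp6 and Igfbp1 were at low levels in both tissues. Igfbp6 (ENSMUSG00000023046), whose product prefers IGF2 over IGF1, lies on the plus strand of chromosome 15 between bases 102144362 and 102149511. Its FPKM was 3.25 and 2.79 in the placodes versus 5.37 and 4.04 in the SMGs, a log2 change of -0.50 (SE 0.14, adjusted p = 0.0182). This call was lost without placode sample 1 (adjusted p = 0.0829), without placode sample 2 (0.156) and without SMG sample 1 (0.0961), and over all alternatives tried the adjusted p lay between 0.00655 and 0.156. Igfbp1 (ENSMUSG00000020429), a gene best known from liver and decidua, lies on the plus strand of chromosome 11 between bases 7197782 and 7202546. Its FPKM was 0.0404 and 0.0623 in the placodes versus 0.0412 and 0.0635 in the SMGs, and it was not tested. The groups overlapped for Igfbp1, and the hepatic and visceral endoderm markers, with sums below 1 in every sample, were also near 0.

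The order of the 10 genes by FPKM differed between the tissues. In the SMGs, Igfbp4 was highest at 215 ± 4.33 (SD, n = 2), followed by Igfbp2 at 192 ± 9.48 (SD, n = 2), Igfbp3 at 190.4 ± 35.9 (SD, n = 2) and Igfbp5 at 189.5 ± 16.2 (SD, n = 2). The SMG values of Igfbp3 reached into the range of Igfbp4 and overlapped those of Igfbp2, and those of Igfbp5 overlapped both Igfbp2 and Igfbp3, so the order among Igfbp2, Igfbp3 and Igfbp5 was within the spread of the samples. Below them stood Igf1, Igfbp7, Igf1r, Insr, Igfbp6 and Igfbp1, each with no overlap with the next. In the placodes, Igfbp2 at 1127 ± 63.7 (SD, n = 2) was followed at a distance by Igfbp5 at 350.3 ± 2.51 (SD, n = 2), Igfbp4 at 65.6 ± 0.814 (SD, n = 2) and Igfbp3 at 23.9 ± 0.263 (SD, n = 2). Next came Igf1r, then Insr and Igf1, whose values overlapped, and then Igfbp6, Igfbp7 and Igfbp1.

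As shares of the summed FPKM of the 7 binding-protein genes, which do not depend on the scaling of the samples, the SMGs had similar shares of Igfbp2, Igfbp3, Igfbp4 and Igfbp5 and little of the other 3 genes, and the placodes had a pool held mostly by Igfbp2. Igfbp2 took 72.4% and 71.0% in the placodes versus 22.8% and 23.5% in the SMGs. Igfbp5 took 21.8% and 22.9% in the placodes versus 23.1% and 22.6% in the SMGs, so its share overlapped between the tissues although its FPKM was higher in the placodes. Igfbp4 took 24.3% and 27.6% in the SMG samples but 4.09% and 4.27% in the placode samples. For Igfbp3 these shares were 24.8% and 20.9% in glands and 1.47% and 1.58% in placodes, the lowest relative to the glands after Igfbp7. Igfbp7 took 4.40% and 4.82% in the SMG samples and about 0.1% in the placodes. These shares were described without a test.

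**Figure D4:**
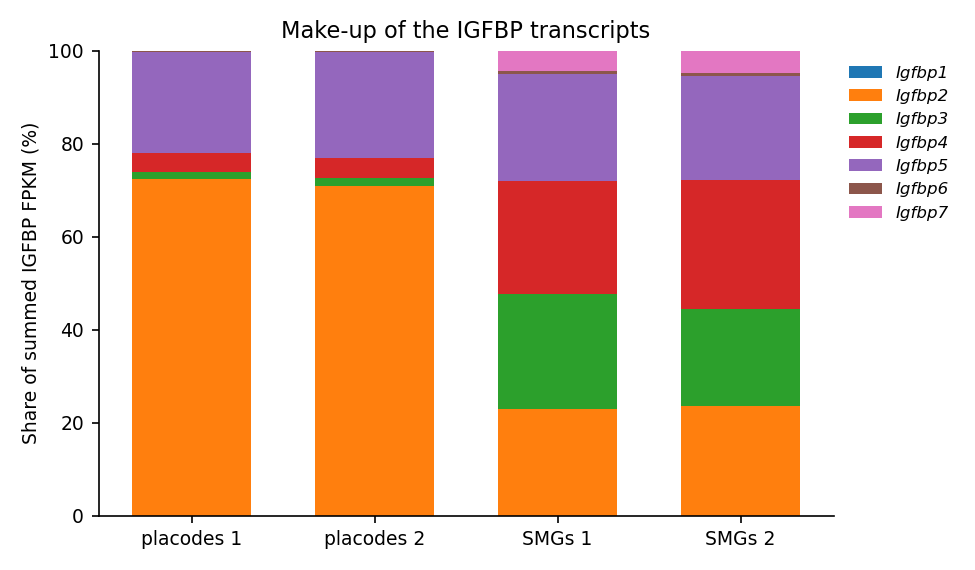
Share of each binding-protein gene in the summed FPKM of Igfbp1 to Igfbp7, in percent, as stacked bars for each of the 4 samples. Igfbp2 fills 71.0 to 72.4% of the placode bars and 22.8 to 23.5% of the SMG bars, while the Igfbp5 section is of similar height in all bars.

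The sum of the 7 binding-protein genes was itself higher in the placodes, at an FPKM of 1618 and 1524 against 871.4 and 789.0 in the SMG samples. Igfbp2 alone gave 1172 and 1082 of it in the placodes and 199.0 and 185.6 in the SMGs. Without Igfbp2, the sum of the remaining genes was lower in both placode samples. The sum of Igf1 and Igf2 was lower, at 290.8 and 281.5 against 1235 and 1542. The ratio of binding-protein to ligand transcripts was therefore 5.57 and 5.41 in the placodes versus 0.705 and 0.512 in the SMGs. These ratios concern transcripts, and protein was not measured here.

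The genes of the binding proteins lie in part as neighbours. Igfbp2 and Igfbp5 point toward each other on chromosome 1 with a gap of 5.457 kb, and both were higher in the placodes. Igfbp1 and Igfbp3 are arranged in the same way on chromosome 11 with a gap of 3.539 kb, where Igfbp3 was lower and Igfbp1 was near 0 in both tissues. No annotated gene lies in either gap.

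Upstream sequences from RefSeq on GRCm38.p6 were found for 9 of the 10 genes. The 250 bases before the annotated start are shown for the 4 binding-protein genes that differed at least 2-fold, because they include the gene that rose most and the gene that fell most. Capitals mark GGGCGG or TATAAA on either strand, and no such matches overlapped each other.
Igfbp2, chr1:72824230-72824479, plus strand: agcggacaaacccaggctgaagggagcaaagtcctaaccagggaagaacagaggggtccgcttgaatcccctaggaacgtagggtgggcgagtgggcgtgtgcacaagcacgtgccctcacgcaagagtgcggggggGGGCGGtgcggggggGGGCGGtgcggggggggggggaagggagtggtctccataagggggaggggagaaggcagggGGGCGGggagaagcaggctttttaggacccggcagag
Igfbp3, chr11:7213924-7214173, minus strand: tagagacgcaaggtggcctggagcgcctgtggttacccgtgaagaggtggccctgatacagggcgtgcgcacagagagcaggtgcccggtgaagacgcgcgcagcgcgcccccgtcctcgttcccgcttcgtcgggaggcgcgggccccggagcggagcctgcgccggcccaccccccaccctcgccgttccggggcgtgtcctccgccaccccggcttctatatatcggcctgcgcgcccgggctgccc
Igfbp4, chr11:99040994-99041243, plus strand: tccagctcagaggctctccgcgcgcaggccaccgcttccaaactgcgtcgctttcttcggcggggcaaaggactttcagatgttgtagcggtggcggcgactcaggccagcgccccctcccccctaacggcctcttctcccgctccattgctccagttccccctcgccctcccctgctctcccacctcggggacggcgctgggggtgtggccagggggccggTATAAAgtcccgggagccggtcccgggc
Igfbp7, chr5:77408046-77408295, minus strand: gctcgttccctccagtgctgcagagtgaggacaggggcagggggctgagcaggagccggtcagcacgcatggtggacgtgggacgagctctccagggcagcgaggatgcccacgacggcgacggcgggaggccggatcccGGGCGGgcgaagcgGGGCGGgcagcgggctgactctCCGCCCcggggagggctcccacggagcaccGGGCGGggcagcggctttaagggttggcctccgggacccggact
Igfbp2 held 3 matches to GGGCGG and Igfbp7 held 4, while Igfbp3 and Igfbp4 held 0. RefSeq gives Igfbp2 a second start, whose window (chr1:72825137-72825386, not shown) held 0 matches and 11 CpG dinucleotides. This motif occurs in 32.7% of 32851 promoter windows of the same length, and it was found in the shown window of the most raised gene and in that of the most lowered gene. TATAAA, found in 12.4% of windows, was present in Igfbp4 only among these 4 windows, starting at position -28 from the start. In the windows shown, the number of CpG dinucleotides was 14 in Igfbp2, 32 in Igfbp3, 22 in Igfbp4 and 26 in Igfbp7, against a median of 6 over all windows. A match of letters is a description of the window and not evidence of binding.

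Beyond these 10 genes, 63 further genes of the IGF pathway in 7 lists were counted. Of these, 52 were tested and 43 were called, beside 76.2% of all tested features, 20 higher and 23 lower, and the size of the difference was 2-fold or more for 20, beside 29.4% of all tested features, with 8 higher and 12 lower. The median absolute log2 change over the 52 genes was 0.52, close to that of all tested features. Calls of at least 2-fold were made for the ligand gene Igf2, for both other receptor genes, for 5 of 8 tested genes that carry or cleave binding proteins or block that cleavage, for 3 of 4 tested IGFBP-related genes, for 5 of 11 tested adaptor genes and for 4 of 23 genes of the PI3K-Akt-mTOR-Foxo arm. The 5 genes that carry or cleave binding proteins or block that cleavage passed the minimum mean FPKM only through the tissue where they were high. The share of such calls was not compared between lists by a test.

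**Figure D5:**
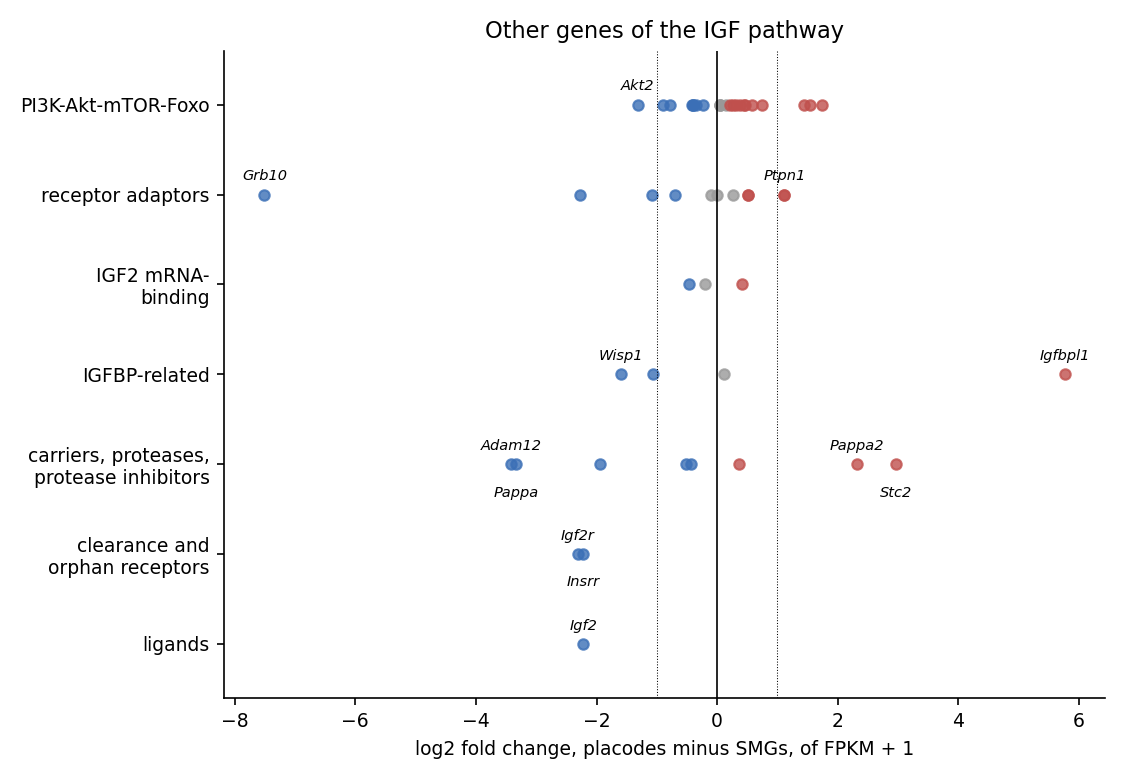
log2 change of FPKM + 1 between placodes and SMGs for the 52 tested genes of the 7 pathway lists, 1 point per gene. Red and blue points were called higher and lower in the placodes, grey points were not called, and dotted lines mark 2-fold. Grb10 (-7.51) and Igfbpl1 (5.76) lie at the ends.

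Both other receptor genes fell by 2-fold or more in the placodes. Igf2r encodes the mannose-6-phosphate receptor, which takes up IGF2 for breakdown and does not signal as a kinase. Its FPKM was 13.7 and 13.1 in the placodes versus 73.0 and 68.2 in the SMGs (log2 change -2.31, SE 0.06, adjusted p = 5.66e-07). With Igf2r much lower and Igf1r somewhat higher in the placodes, the ratio of Igf2r to Igf1r was 0.793 and 0.734 in the placodes versus 6.27 and 6.18 in the SMGs. Insrr, which encodes an insulin receptor-related kinase, was listed at 0 and 0.0362 in the placodes versus 3.81 and 3.66 in the SMGs.

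Of 10 genes for carriers, proteases and protease inhibitors that act on IGFBPs, 8 were tested and all 8 were called, where 76.2% of all tested features were, 3 higher and 5 lower. Differences of at least 2-fold were called for 2 of the higher and 3 of the lower genes, where 29.4% of all features differed as much. These 5 genes, Pappa2, Stc2, Pappa, Adam12 and Htra3, each had a mean FPKM under 1 in the lower group. They passed the minimum only through the other group, so their count is a description and not a result about the list. The 2 pappalysin genes moved in opposite directions. Pappa, whose protease cleaves IGFBP4, had an FPKM of 0.153 and 0.177 in the placodes versus 10.1 and 11.5 in the SMGs (log2 change -3.34, adjusted p = 1.51e-06). Pappa2, whose protease cleaves IGFBP5 and IGFBP3, had an FPKM of 4.18 and 4.23 in the placodes versus 0.0426 and 0.0473 in the SMGs (log2 change 2.32, adjusted p = 5.78e-06). Each tissue thus listed 1 of the 2 genes at a level well under an FPKM of 1.
Stc2, which encodes a stanniocalcin that blocks pappalysins, was at 12.2 and 10.3 in the placodes versus 0.866 and 0.306 in the SMGs (log2 change 2.97, adjusted p = 2.10e-05). Its relative Stc1 rose less, from 3.11 and 3.09 to 4.31 and 4.19 (adjusted p = 0.0128, 0.0586 without placode sample 1, and at least 0.00446 over all alternatives). Adam12, a metalloprotease known to cleave IGFBP3 and IGFBP5, had the lowest log2 change of this list, -3.42 (adjusted p = 7.91e-07), with an FPKM of 0.660 and 0.614 in the placodes versus 15.9 and 17.2 in the SMGs. The lysosomal protease gene Ctsd was the most abundant of the list, at 71.5 and 67.9 in the placodes versus a mean of 94.8 in the SMGs, and differed by -0.44 on the log2 scale (adjusted p = 2.71e-04). Igfals, which encodes the acid-labile subunit of the circulating IGF complex, was listed at 0 in 3 samples and at 0.114 in SMG sample 2. The mesenchyme sum was 9.88 times as high in the SMGs, and its part in the differences of Igf2r, Pappa and Adam12 was not tested.

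Among 9 IGFBP-related genes, 4 were tested and 3 were called, near the 76.2% of all features, 1 higher and 2 lower, all at least 2-fold (29.4% of all features). Igfbpl1, which encodes an IGFBP-like protein of developing neurons, had an FPKM of 86.0 and 84.5 in the placodes versus 0.630 and 0.548 in the SMGs. Its log2 change was 5.76 (SE 0.07, adjusted p = 1.07e-07), larger than that of any IGFBP gene tested. The part of the neural markers, all 8 of which were higher in the placodes, was not tested. Wisp1, also named Ccn4, was at 3.03 and 2.77 in the placodes versus 10.9 and 10.7 in the SMGs. All 3 IGF2 mRNA-binding protein genes were tested, 2 were called, and none was called at 2-fold, although Igf2 was. Igf2bp2 was higher by 0.41 on the log2 scale (adjusted p = 3.29e-04) and Igf2bp3 lower, at -0.46 (adjusted p = 7.96e-04).

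Of 13 adaptor genes of the receptors, 11 were tested and 8 were called, near the 76.2% of all features, 4 higher and 4 lower, with at least 2-fold differences for 2 and 3 of them against 29.4% of all features. Grb10, an imprinted gene whose adaptor binds IGF1R and INSR and dampens their signal, had the largest difference of all genes in these lists. Its FPKM was 0.698 in each placode sample versus 300.0 and 316.1 in the SMGs, a log2 change of -7.51 (SE 0.06, adjusted p = 4.10e-08). The insulin receptor substrate genes Irs1 and Irs2 differed by less than 2-fold and in opposite directions. Irs1 was lower, at 6.87 and 7.13 against a mean of 12.0 (log2 change -0.70, adjusted p = 2.86e-04), and Irs2 was higher, at 13.2 and 12.6 against 9.0 and 8.54 (log2 change 0.51, adjusted p = 8.06e-04). Irs4 was below an FPKM of 0.2 in every sample and was not tested. Ptpn1, whose phosphatase acts on the insulin receptor, and Grb2 had the highest log2 changes of the adaptor list, and these were tied within their standard errors. Ptpn1 was at 32.2 and 34.4 FPKM in the placodes versus 15.2 and 14.5 in the SMGs (1.11, SE 0.06, limma adjusted p = 1.17e-05). Grb2 was at 67.7 and 70.3 FPKM in the placodes versus 31.2 and 31.6 in the SMGs (1.11, SE 0.05, limma adjusted p = 4.42e-06).

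In the PI3K-Akt-mTOR-Foxo arm, 19 of 23 genes were called (all features, 76.2%), 11 higher and 8 lower, 4 differed at least 2-fold (all features, 29.4%), and the median log2 change was 0.15. Of the kinase genes at the centre of this arm, Akt1 had the highest FPKM of the list, at 114.9 and 110.0 in the placodes versus 145.5 and 142.4 in the SMGs (log2 change -0.35, adjusted p = 7.62e-04). Akt2, the form known for the insulin response, went from 36.9 and 37.4 in glands to 14.4 and 14.1 in placodes (log2 change -1.32, adjusted p = 3.15e-06). Both were lower in the placodes, and Akt2 differed by more than 2-fold.

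The genes whose levels were most like those of the most raised and the most lowered IGF genes were taken by the Euclidean distance of log2(FPKM + 1) over the 4 samples, among 22035 other Ensembl genes. Nearest to Igfbp2 were the glycolytic enzyme genes Ldha (distance 0.326), Aldoa (0.569) and Pgk1 (0.601). Ldha had an FPKM of 1285 and 1228 in the placodes versus 233.7 and 190.3 in the SMGs, close to Igfbp2 in each sample. Nearest to Igfbp7 were the transcription factor gene Fos (0.296), the membrane protein gene Tmem176a (0.310) and the annexin gene Anxa1 (0.392). With 2 tissues and 2 samples of each, such likeness reflects level and difference only.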

How the data were processed

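RNA-seq values of 2 placode and 2 SMG samples were used, grouped by the sample titles. The authors mapped paired-end reads with HISAT2 and deposited FPKM per gene and sample. The submitters' processing notes name GRCm38 and also GRCh38, without roles. HISAT2's version, the annotation, the FPKM program and the strandedness are not given in the sources used here. Of 24771 features, 22036 were Ensembl genes and 2735 assembled loci, and 22022 identifiers were found in GENCODE M21 (GRCm38), the source of coordinates. Depth is unknown, so no counting intervals are given.

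Values were transformed as log2(FPKM + 1). The 13193 features with a mean FPKM of at least 1 were fitted with limma 3.58.1 in R 4.3.3 (eBayes with trend, group as the only term), which uses all 4 samples. Adjustment was Benjamini-Hochberg over all tested features, two-sided, and fold changes of low genes are understated by the pseudocount of 1. Lists were described by counts and medians. The fit was tested on simulated data. Figures were drawn with matplotlib 3.10.9.

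The 10 genes and all lists were chosen with earlier results of these data known. Named pathway genes are a preset group plus, in each list, the most abundant gene and the called genes with the highest and lowest log2 change, except for 1 item that is not reported here. Alternatives changed the pseudocount, scaling, minimum FPKM, variance prior, replicate block and samples.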

Additional observations from a re-analysis of the deposited data

How the results depend on the processing

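There were 13 alternatives. Under those that kept all 4 samples, 7 or 8 of the 10 genes were called, 3 of them higher in the placodes, and 5 at 2-fold. Most tested features were called as well. They numbered 10049 of 13193 as reported, 7460 of 9679 at a minimum mean FPKM of 5 and 11894 of 20464 without a minimum. Igfbp6 alone lost its call, without placode sample 1, placode sample 2 or SMG sample 1, and it fell under the minimum at a mean FPKM of 5, where 7 genes were called. Its log2 change was then between -0.58 and -0.33 where it lost its call. Over the alternatives, 113 of 116 values of the tested genes kept their direction and side of the threshold, as did 256 of 257 values of the named pathway genes, where Stc1 was the exception. None turned its direction. Leaving out a sample leaves 1 in its group, which limma then takes to vary like the other group. Pathway genes called at 2-fold numbered between 17 (minimum FPKM of 5) and 22 (pseudocount of 0.1), and 20 as reported. Features called at 2-fold numbered 3877, and 2475 with a minimum FPKM of 5, where fewer features were tested. Leaving Igfbp7 out of the binding-protein sum moved the share of Igfbp2 in the SMGs to 24.3% and that of Igfbp5 to 23.9%. The median log2 change of all features was -0.05 as deposited and 0.01 at an equal FPKM sum per sample.

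Samples with the same replicate number did not deviate together (r = -0.03 across features). This correlation is between 2 different tissues, so it cannot tell whether such samples shared a day or a batch. With the number as a replicate block, 8 of the 10 genes, 20 pathway genes at 2-fold and 10043 features were called, against 10049 without it. With 2 samples a group and unknown depth, small differences such as that of Insr could not be resolved further.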

Other observations

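Genes of the growth hormone receptor axis, which drives Igf1 in the liver and other tissues after birth, were looked at after the values of Igf1 had been seen, so their counts are a description. All 9 genes were tested and called, as were 76.2% of all tested features, 2 higher and 7 lower in the placodes, beside 35.7% and 40.4% of all features. At least 2-fold differences were called for 3 genes, all lower, where 15.2% of all features were lower by as much. The receptor gene Ghr had an FPKM of 2.64 and 2.20 in the placodes versus a mean of 14.9 in the SMGs, a log2 change of -2.21 (SE 0.11, limma adjusted p = 8.23e-06). The prolactin receptor gene Prlr was listed at 0.0220 and 0 in the placodes versus 2.82 and 2.89 in the SMGs. The signal transducer genes Stat5a (adjusted p = 2.90e-04) and Stat5b (log2 change -0.75, adjusted p = 1.72e-04) were lower as well.

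The kinase gene Jak2 and the feedback inhibitor gene Socs2 were the 2 genes higher in the placodes. Jak2 was at 12.2 and 12.1 in the placodes versus 10.2 and 10.3 in the SMGs (log2 change 0.22, adjusted p = 0.0198), and its call was lost without any 1 of the 4 samples, with adjusted p between 0.0631 and 0.0829, where the other alternatives gave between 0.00822 and 0.0361. Socs2 was at 11.6 and 12.3 against 8.82 and 9.37 (log2 change 0.36, adjusted p = 4.93e-03, 0.0530 without placode sample 2, and between 0.00274 and 0.0419 under the other alternatives). The other inhibitor genes Socs1, Socs3 and Cish were lower in the placodes, with log2 changes between -0.97 and -0.67. The summed mesenchyme markers were 9.88 times as high in the SMGs, and their part in these differences was not tested.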
